A study of Mus musculus with 14 samples.

Results

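The renin-angiotensin system was represented on these arrays by 9 genes, taken as the rows AGT, REN1, ACE, AGTR1A, AGTR1B, AGTR2, MAS1, AGTRAP and ATP6AP2 of the deposited signal table, and written below as mouse gene symbols, out of 18138 gene rows in all. Of these 9 genes, 5 (Agt, Ace, Agtr1a, Agtrap and Atp6ap2) were tested, having been detected (p under 0.05) on 3 arrays or more, as were 9408 rows of the whole table. The other 4 (Ren1, Agtr1b, Agtr2 and Mas1) did not, and their values are given without a test.

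The arrays were Illumina expression arrays of total RNA from the left ventricle of male mice, 14 in all. The 4 groups were C57Bl/6J sham (3 arrays), C57Bl/6J with angiotensin II (4 arrays), C57Bl/6N sham (3 arrays) and C57Bl/6N with angiotensin II (4 arrays). Treated animals received angiotensin II for 48 h from osmotic mini-pumps placed under the skin, at 500 ng/kg per minute by the series title and 500 ng/kg per hour by its design text, which the sources used here do not settle. No age is given, and whether each array is a mouse of its own is not stated, so the p-values speak only of the spread among samples, which may be technical.

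In the renin-angiotensin system, renin cuts angiotensinogen, the product of Agt, to angiotensin I, and angiotensin-converting enzyme, the product of Ace, trims that to angiotensin II. Angiotensin II constricts vessels, releases aldosterone and promotes growth and fibrosis of the heart through type 1 receptors, which mice encode in Agtr1a and Agtr1b. Signals of the type 2 receptor, from Agtr2, and of the MAS receptor, from Mas1, which binds a shorter angiotensin peptide, generally oppose those of the type 1 receptor.

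The stretches of 250 bases before the transcription start are shown for a pair of members that were above background on nearly every array, Ace and Agtrap, and a pair close to background, Agt and Ren1, since their base composition differed. They come from RefSeq on GRCm38.p6 and are written 5′ to 3′ on the strand of the gene, with each CG dinucleotide in capitals. Ace is shown at chr11:105967698-105967947, forward strand, Agtrap at chr4:148088065-148088314, reverse strand, Agt at chr8:124569707-124569956, reverse strand and Ren1 at chr1:133350424-133350673, forward strand.
Ace: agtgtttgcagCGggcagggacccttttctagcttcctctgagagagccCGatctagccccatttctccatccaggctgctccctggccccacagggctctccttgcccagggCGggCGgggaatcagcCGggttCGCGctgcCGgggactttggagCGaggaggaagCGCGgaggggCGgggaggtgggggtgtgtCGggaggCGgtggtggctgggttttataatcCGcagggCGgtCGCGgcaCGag
Agtrap: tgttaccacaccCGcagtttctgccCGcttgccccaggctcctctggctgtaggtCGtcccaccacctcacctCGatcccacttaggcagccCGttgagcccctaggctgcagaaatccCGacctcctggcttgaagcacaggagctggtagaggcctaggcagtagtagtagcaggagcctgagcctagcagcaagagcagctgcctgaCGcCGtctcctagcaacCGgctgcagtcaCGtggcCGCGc
Agt: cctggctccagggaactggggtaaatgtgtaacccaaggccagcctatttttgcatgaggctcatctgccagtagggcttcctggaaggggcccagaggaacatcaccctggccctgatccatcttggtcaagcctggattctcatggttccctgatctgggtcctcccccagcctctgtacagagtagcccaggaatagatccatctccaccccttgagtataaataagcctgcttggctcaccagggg
Ren1: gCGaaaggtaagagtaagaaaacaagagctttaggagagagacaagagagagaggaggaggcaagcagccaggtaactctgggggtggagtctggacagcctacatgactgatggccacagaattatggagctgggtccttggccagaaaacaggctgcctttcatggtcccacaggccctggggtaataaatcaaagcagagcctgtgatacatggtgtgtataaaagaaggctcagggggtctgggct

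RefSeq promoter windows, which run from 250 bases before to 50 bases after the start, were matched for 8 of the 9 genes. Across 32851 such windows of mouse genes, the median window held 7 CG dinucleotides. Agtr1a had no entry. Among members above background on at least 13 arrays, the windows of Ace, Atp6ap2 and Agtrap held 29, 24 and 20. The windows of Agtr1b, Agtr2, Mas1, Agt and Ren1, none of which was above background on more than 4 arrays, held 5, 5, 2, 1 and 1. These 8 windows are a description of sequence, and no test was made of it.

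Of 4 motifs searched on both strands of each window, TATAAA was found on the gene's own strand in Agtr1b, Agt and Ren1, where it began at -31, -30 and -29 from the start, and on the other strand in Ace. It occurs in 13.6% of all windows. CCAAT (37.4% of windows) was found in Agtr1b, Agtr2, Mas1 and Atp6ap2, GGGCGG (35.7%) in Ace, Agtrap and Atp6ap2, and TGACGTCA (1.79%) in none of the 8. A match describes the letters of a window and is not evidence of binding.

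Signals below are log2 intensities after background correction and quantile normalisation, and arrays are listed in an order that only names them. A row was taken as above background on an array where its deposited signal was no lower than that of the dimmest detected row of 1 probe. Differences come from a limma fit to all 14 arrays, are given as angiotensin II minus sham or C57Bl/6N minus C57Bl/6J, and were called where the Benjamini-Hochberg adjusted p over 9408 rows was under 0.05. Rows were named by symbol only, so the place of a probe within its gene is not known here, and levels of different genes cannot be compared.

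Arrays had 46.4% to 49.3% of their rows detected, and median deposited signals ran from 80.8 to 112. Angiotensin II array 1 of C57Bl/6J stood apart from its group. On it 196 genes lay over 1 log2 unit above or below all 3 other arrays, against at most 27 on any other treated array. Sham arrays, compared within groups of 3 arrays, had at most 56. Fibroblast markers of treated array 1 of C57Bl/6J had a median of 0.52 above the sham mean, and that array had the lowest weight (0.171) when weights were estimated. Several values and calls that depended on that array are given with and without it, but not those of every comparison. For the difference between substrains averaged over treatments, 0 of 5 tested members were called with it and 1 without it. Of 10 cardiomyocyte markers, 9 had a row, and all 9 were above background on all 14 arrays. Nnt, which carries a known deletion in C57Bl/6J, was above background on none of the 14 arrays and so gave no check of the substrain labels. Kdr, an endothelial receptor gene, and Rhoa, a GTPase gene that most cells express, were likewise above background on no array, so a row near background does not show that its transcript was absent.

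Agt, the substrate gene (chr8:124556587-124569706 on GRCm38.p6), lay at the edge of detection in ventricle. Its log2 signals were 5.16, 5.08 and 5.24 in C57Bl/6J sham and 5.56, 5.49, 5.54 and 5.46 in C57Bl/6J with angiotensin II. In C57Bl/6N they were 5.77, 5.47 and 5.34 in sham and 5.52, 5.57, 4.95 and 5.26 with angiotensin II. All 4 treated C57Bl/6J arrays were above all 3 sham arrays of that substrain, while the C57Bl/6N groups overlapped.

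The C57Bl/6J sham arrays were all below the background threshold for Agt, as were 3 of the 4 treated ones, so no size is given for that response. Its adjusted p was 0.240. The groups of C57Bl/6J did not overlap for 7.94% of tested genes in the upward direction. In C57Bl/6N, the difference was -0.20 (95% interval -0.50 to 0.09, adjusted p = 0.350), with 1 of 3 sham and 2 of 4 treated arrays above background. The difference between the responses of the substrains had an adjusted p of 0.197 and is likewise given no size. Sham C57Bl/6N arrays were all above sham C57Bl/6J arrays for Agt, with an adjusted p of 0.583. The lower bound on that ratio was 1.005, with 1 of the 3 C57Bl/6N arrays above background, so no size is read from it.

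Ren1, the gene of renin (chr1:133350674-133360320), which is made chiefly in kidney, was above background on 2 of 14 arrays. These were angiotensin II array 3 of C57Bl/6J, with a detection p-value of 0.0238, and sham array 3 of C57Bl/6N, with 0.0439. Its deposited signals ran from 74.9 to 96.6 with a median of 89.2. The arrays with a detected signal fell in different groups, and no group had more than 1 of them.

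Ace (chr11:105967948-105989964), whose enzyme also breaks down bradykinin, was above background on 13 of 14 arrays. Its row combined several probes, judging from its detection p-values. Log2 signals were 6.80, 6.74 and 6.75 in C57Bl/6J sham and 5.43, 7.16, 7.08 and 6.85 in C57Bl/6J with angiotensin II. They were 6.35, 6.15 and 6.61 in C57Bl/6N sham and 6.64, 6.80, 6.37 and 6.78 in C57Bl/6N with angiotensin II. Treated array 1 of C57Bl/6J, the array that stood apart, was lowest of all 14, and the other 3 treated arrays of that substrain were above all of its sham arrays.

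The response of Ace in C57Bl/6J was -0.13 (95% interval -0.78 to 0.52, adjusted p = 0.872) and turned to 0.27 (adjusted p = 0.406) without array 1. On that array its deposited signal was 84.7 against a threshold of 88.3, although its detection p-value was 0.00849. In C57Bl/6N, the response was 0.28 (-0.37 to 0.93, adjusted p = 0.574). The difference between the responses was 0.41 (-0.50 to 1.33, adjusted p = 0.631), and 0.01 without array 1. Sham arrays of C57Bl/6N were all below those of C57Bl/6J for Ace, with a difference of -0.40 (-1.09 to 0.30, adjusted p = 0.801). Under angiotensin II, the substrains differed by 0.02 (-0.58 to 0.62, adjusted p = 0.979), and by -0.38 (adjusted p = 0.0772) without array 1. On the linear scale the intervals of the response were 0.583 to 1.43-fold in C57Bl/6J and 0.775 to 1.90-fold in C57Bl/6N, so no absence of change can be read from them.

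Agtr1a (chr13:30336356-30382867), the main type 1 receptor gene of mouse tissues, was above background on all 14 arrays, with deposited signals of 660 to 1466. Log2 signals were 10.03, 9.97 and 9.90 in C57Bl/6J sham and 9.50, 10.04, 9.81 and 9.63 in C57Bl/6J with angiotensin II. The C57Bl/6N values were 10.32, 10.23 and 9.81 in sham and 9.80, 10.002, 9.60 and 9.94 with angiotensin II. Treated means were lower than sham means in both substrains, but treated and sham arrays overlapped in each.

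The difference for Agtr1a was -0.22 (-0.53 to 0.09, adjusted p = 0.495) in C57Bl/6J and -0.28 (-0.59 to 0.03, adjusted p = 0.205) in C57Bl/6N. The responses differed by -0.06 (-0.50 to 0.38, adjusted p = 0.904), a difference that was above 0 under median scaling. Averaged over the substrains, Agtr1a differed by -0.25 ± 0.10 (SE), or 0.840-fold, with a 95% interval of -0.47 to -0.03. That did not pass the threshold (adjusted p = 0.116), in a comparison where 15.8% of tested genes did. It passed without sham array 3 of C57Bl/6N (-0.33, adjusted p = 0.0377), the lowest array of that group. In whole ventricle, fewer cells that express a gene and less RNA per cell cannot be told apart. The substrains differed by 0.15 (-0.19 to 0.48, adjusted p = 0.842) in sham and by 0.09 (-0.20 to 0.38, adjusted p = 0.723) under angiotensin II.

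Agtr1b (chr3:20314473-20367177), the other type 1 receptor gene, which is prominent in adrenal gland, was above background on no array. Its deposited signals ran from 59.1 to 81.5 and its detection p-values from 0.103 to 0.622. Agtr2 (chrX:21484624-21488833), expressed mainly before birth, was likewise above background on no array, with signals of 64.1 to 89.0 and detection p-values of 0.0727 to 0.306. No type 2 receptor signal was thus detectable by this probe in either substrain, with or without angiotensin II.

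Mas1 (chr17:12838841-12868150) was above background on 2 of 14 arrays, both sham. These were array 2 of C57Bl/6J (detection p-value 0.0451) and array 1 of C57Bl/6N (0.0263). Over all arrays its deposited signals ran from 62.8 to 111 with a median of 85.2. None of the 8 angiotensin II arrays reached the threshold, but 4 of the 6 sham arrays did not reach it either.

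**Figure D1:**
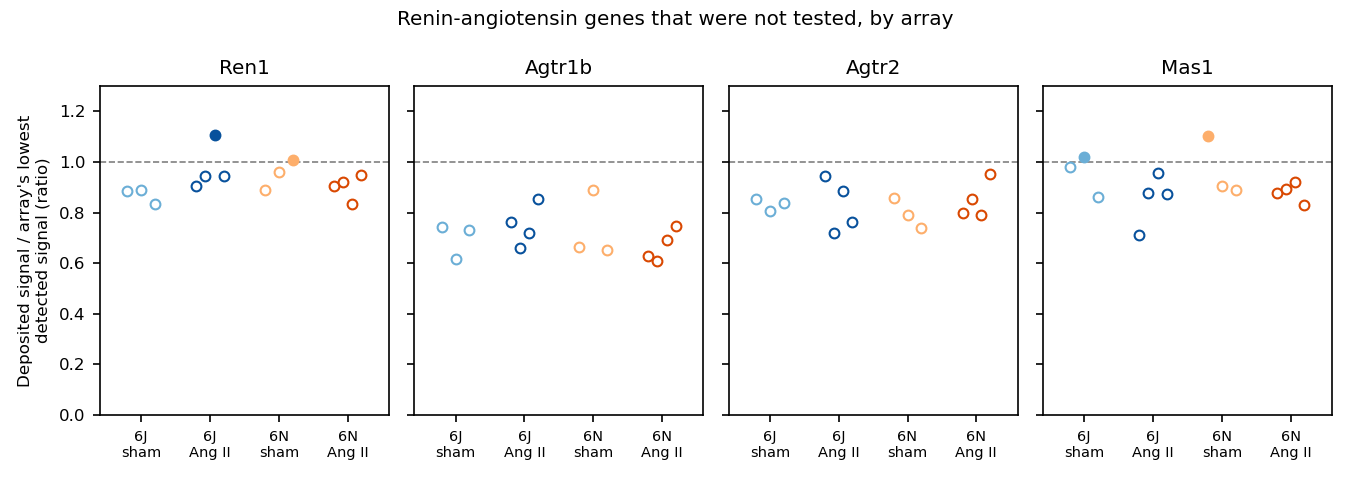
Deposited signal of the 4 members that were not tested, divided by the lowest detected signal of the same array (vertical axis, ratio on a linear scale from 0), for each array of the 4 groups (horizontal axis); filled points reached that threshold and the dashed line marks it. Agtr1b and Agtr2 were below the line on all 14 arrays, while Ren1 and Mas1 reached it on 2 arrays each.

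Agtrap (chr4:148077061-148088064) encodes a membrane protein that binds the type 1 receptor and promotes its internalisation, and it was above background on all 14 arrays. Its log2 signals were 8.67, 8.94 and 8.90 in C57Bl/6J sham and 9.45, 8.88, 8.83 and 8.89 in C57Bl/6J with angiotensin II. In C57Bl/6N they were 8.85, 9.03 and 8.75 in sham and 8.22, 8.64, 8.46 and 8.69 with angiotensin II. Treated C57Bl/6N arrays were below every sham array of that substrain and below every treated C57Bl/6J array. Group means, from low to high, were 8.51 ± 0.21 (SD, n = 4) in treated C57Bl/6N, 8.84 ± 0.14 (n = 3) in C57Bl/6J sham, 8.88 ± 0.15 (n = 3) in C57Bl/6N sham and 9.01 ± 0.29 (n = 4) in treated C57Bl/6J. The upper 3 groups overlapped.

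Among treated animals, Agtrap was lower in C57Bl/6N than in C57Bl/6J by a log2 difference of -0.51 ± 0.14 (SE), a ratio of 0.704, with a 95% interval of -0.81 to -0.20 (adjusted p = 0.0398). It was the 1 of 5 tested members called in that comparison, where 9.24% of tested genes were called and 3.78% were lower. The share of tested genes whose groups did not overlap in this direction was 7.26%. The sham groups differed by 0.04 (-0.31 to 0.39, adjusted p = 0.971), which fell below 0 without sham array 1 of C57Bl/6J.

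The call of Agtrap was close to the threshold. Without treated array 1 of C57Bl/6J, which was highest for Agtrap, the difference was -0.36 (adjusted p = 0.0722). It was also lost without treated arrays 1, 2 or 3 of C57Bl/6N, with adjusted p of 0.145, 0.0566 and 0.112, without treated array 4 of C57Bl/6J (0.0608) and without sham arrays 2 or 3 of C57Bl/6J (0.0531 and 0.0537). Over all 14 fits that left out 1 array, the difference ran from -0.57 to -0.36 and never changed sign. Scaling to a common median gave -0.41 (adjusted p = 0.112) and background inferred from all rows gave -0.44 (adjusted p = 0.0753). The call was also lost with no filter (0.0734) and with only the treated groups in the fit (0.0951).

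**Figure D2:**
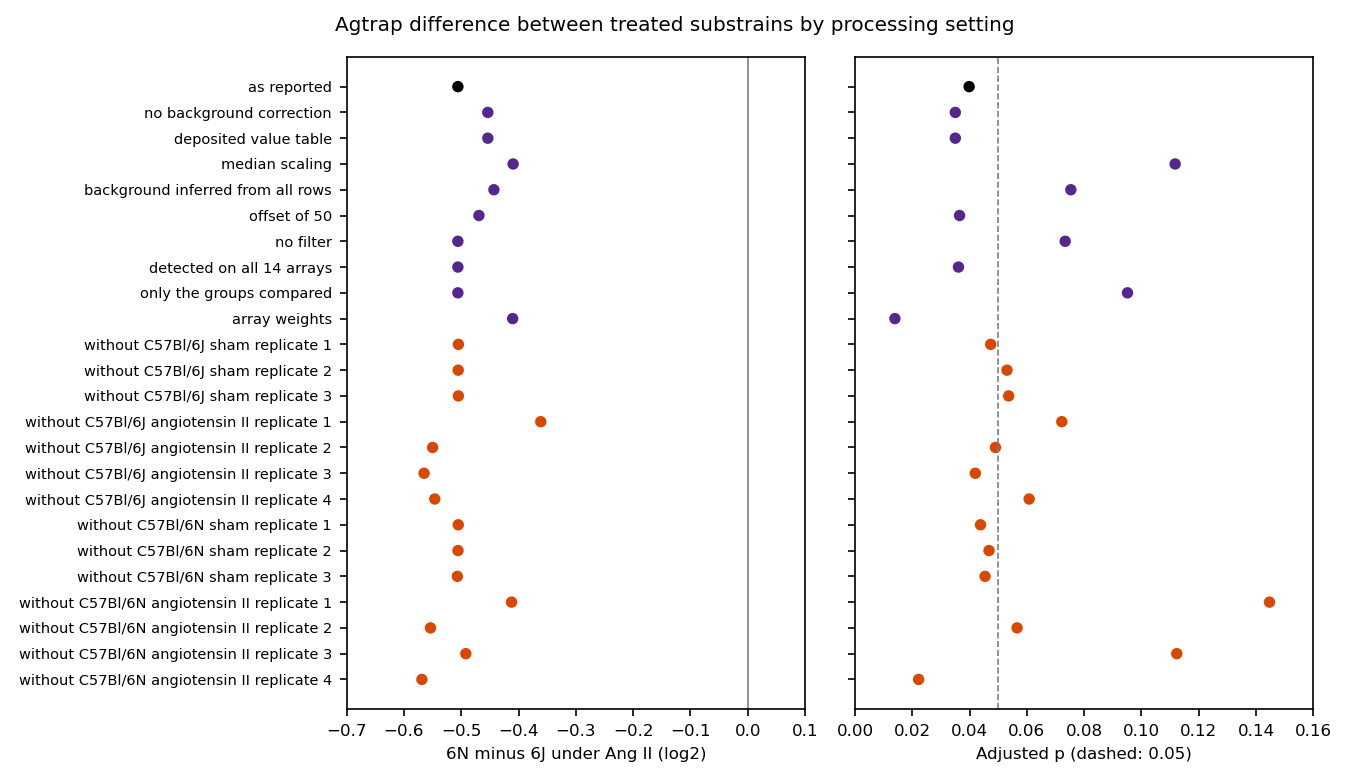
Log2 difference of Agtrap, C57Bl/6N minus C57Bl/6J under angiotensin II (left), and its adjusted p (right), for the reported fit (black), other processing settings (purple) and fits that left out 1 array (orange); the dashed line is the threshold of 0.05. All differences lay below 0, between -0.57 and -0.36, while adjusted p ran from 0.0139 to 0.145.

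The response of Agtrap to angiotensin II was 0.18 (-0.15 to 0.50, adjusted p = 0.626) in C57Bl/6J and 0.03 without array 1. In C57Bl/6N it was -0.37 (-0.70 to -0.04), or 0.774-fold, which did not pass over all genes (adjusted p = 0.115) although the groups did not overlap, as for 15.5% of tested genes in this direction. That response passed without treated array 1 of C57Bl/6J (-0.37, adjusted p = 0.0332) and with array weights (-0.46, adjusted p = 0.0135). The difference between the responses was -0.55 (-1.01 to -0.08) and did not pass (adjusted p = 0.230). An effect of angiotensin II on Agtrap that differs between the substrains was therefore not shown.

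Markers of other cells moved in the same comparison. Of 10 macrophage and monocyte markers, all tested, 5 were higher in treated C57Bl/6N than in treated C57Bl/6J, and their summed signal ran from 8373 to 18348 against 6918 to 8705. That count was 0 without treated array 1 or 3 of C57Bl/6N and with only the treated groups in the fit, 2 without treated array 2 or 4 of C57Bl/6J, with no filter or with background inferred from all rows, 3 without treated array 2 of C57Bl/6N, and 9 without its treated array 4 or with array weights. Cardiomyocyte markers had 1 of 9 lower, with summed signals of 186195 to 206432 against 197549 to 219785. Atrial markers had 2 of 7 lower, fibroblast markers 1 of 10 higher and 2 lower, and smooth muscle and pericyte markers 1 of 11 lower. No endothelial marker was called, of 9 tested. Of all tested genes 5.45% were higher and 3.78% lower in this comparison. The part of any of these cells in the Agtrap difference was not tested.

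Atp6ap2 (chrX:12587759-12617051), which encodes the prorenin receptor and an accessory part of the vacuolar proton pump, was above background on all 14 arrays. Its row also combined several probes. Log2 signals were 9.01, 9.14 and 9.01 in C57Bl/6J sham and 9.32, 9.08, 9.13 and 9.15 in C57Bl/6J with angiotensin II. In C57Bl/6N they were 9.45, 9.16 and 9.17 in sham and 9.43, 9.23, 9.35 and 9.17 with angiotensin II. Values over the whole study ran from 9.01 to 9.45, and every C57Bl/6N sham array was above every C57Bl/6J sham array.

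Atp6ap2 differed by 0.12 (-0.10 to 0.34, adjusted p = 0.630) with angiotensin II in C57Bl/6J and by 0.04 (-0.18 to 0.26, adjusted p = 0.850) in C57Bl/6N. The responses differed by -0.08 (-0.39 to 0.23, adjusted p = 0.797), also above 0 under median scaling. These intervals leave room for a change of at most 1.26-fold upward in C57Bl/6J and 1.20-fold in C57Bl/6N. The substrains differed by 0.20 (-0.03 to 0.44, adjusted p = 0.700) in sham and by 0.12 (-0.08 to 0.33, adjusted p = 0.449) under angiotensin II. Averaged over treatments, the difference was 0.16 (0.0062 to 0.32, adjusted p = 0.280), in a comparison where 1.99% of tested genes passed.

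**Figure D3:**
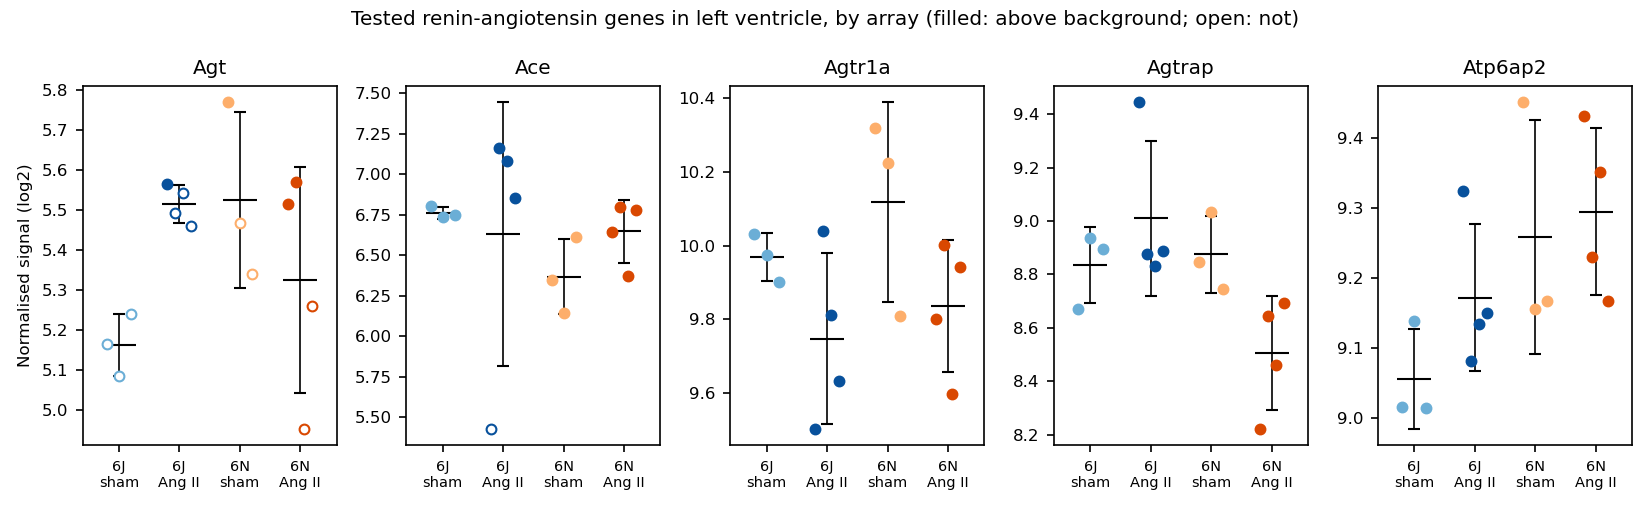
Normalised log2 signal of the 5 tested members (vertical axes, not from 0) on each array of the 4 groups (horizontal axis); filled points were above background, the horizontal bar is the group mean and the whiskers its SD (n = 3 sham, n = 4 angiotensin II). Treated C57Bl/6N arrays of Agtrap lie from 8.22 to 8.69, below all other arrays of the study except 1 C57Bl/6J sham array at 8.67.

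Counted together, 0 of 5 tested members passed for angiotensin II against sham in C57Bl/6J, where 1.37% of tested genes did, and 0 of 5 in C57Bl/6N, where 17.4% did. At an unadjusted p under 0.05, 1 of 5 passed in each substrain, Agt in C57Bl/6J and Agtrap in C57Bl/6N, against 1437 and 2952 of 9408 genes. The difference of the responses called 0 of 5 (0.0106% of genes, 1 in all, Ankrd2), with 2 of 5, Agt and Agtrap, at an unadjusted p under 0.05, against 1644 of 9408 genes. With 5 members, a share of 17.4% would amount to less than 1 gene, so these counts cannot be told from those of all genes.

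Between sham groups 0 of 5 members passed (1, Agt, at an unadjusted p under 0.05, against 717 of 9408 genes), and 0.0213% of genes did (Entpd4 and Rab4a). Groups did not overlap for 3 of the 5, lower in C57Bl/6N for Ace and higher for Agt and Atp6ap2, against 15.8% of all tested genes, 7.61% lower and 8.24% higher. None of these 3 had an adjusted p under 0.583. Ankrd2, Entpd4 and Rab4a are named because their counts are small, after their values were seen.

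**Figure D4:**
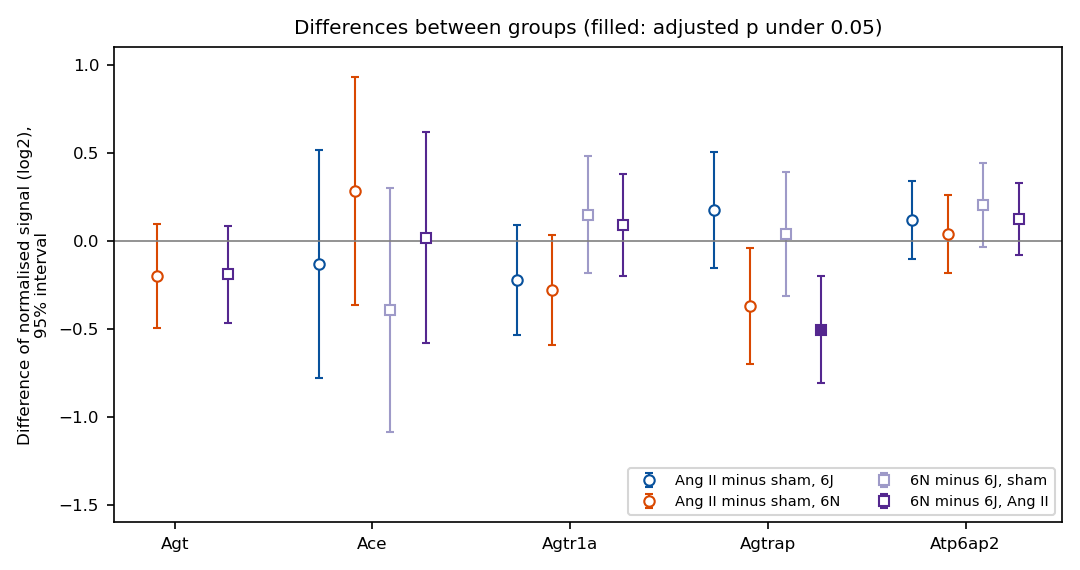
Log2 difference (vertical axis) with its 95% interval for each tested member (horizontal axis) in 4 comparisons, angiotensin II minus sham in each substrain (circles) and C57Bl/6N minus C57Bl/6J in sham and under angiotensin II (squares); filled symbols passed the threshold. Agtrap under angiotensin II, at -0.51, is the filled symbol, and the comparisons of Agt that involve the C57Bl/6J sham arrays are left out because none of them was above background.

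Genes whose signals followed a member most closely over the 14 arrays were found by Pearson correlation, as a description over arrays that share groups and normalisation. Agtrap was closest to Supv3l1 (0.957), Mdh1 (0.945) and Hsd17b10 (0.926), and Supv3l1 remained closest (0.927) after group means were subtracted. Agtr1a was closest to Bfar (0.906), Ace to Ctsa (0.943) and Atp6ap2 to Scamp2 (0.925). After group means were subtracted these became Sema6b (0.920) for Agtr1a, Cux1 (0.986) for Ace and Stx12 (0.916) for Atp6ap2. Among the members themselves, the strongest pairing by size was Ace with Atp6ap2 at -0.51, and Ace with Agtrap had -0.49. Array 1 of treated C57Bl/6J was lowest for Ace and highest for Agtrap. In treated C57Bl/6J the SD of Ace was 0.81, against 0.04 to 0.23 in the other groups. That array therefore weighs heavily in the correlations of Ace after group means were subtracted, such as that with Cux1.

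Around the members, 8 lists of 111 pathway genes were examined, of which 104 had a row and 82 were tested. With angiotensin II, 20 of the 82 were called in C57Bl/6N (24.4%, against 17.4% of all tested genes) and 2 in C57Bl/6J (2.44% against 1.37%). In C57Bl/6N 16 were higher and 4 lower, where 9.45% and 7.92% of all tested genes were. The difference of the responses called 0 of 82, with 1 to 5 genes of each list at an unadjusted p under 0.05, so no pathway gene was shown to respond differently in the substrains. That count was 5 without treated array 4 of C57Bl/6N and 6 with array weights. In C57Bl/6N the count fell to 11 without treated array 1 or 3, to 12 without sham array 1 and to 14 without sham array 2, and was 25 without treated array 1 of C57Bl/6J.

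Hbegf, the heparin-binding ligand that is shed when the type 1 receptor transactivates the EGF receptor, was called in both substrains. Its log2 signals were 8.52, 8.42 and 8.47 in C57Bl/6J sham and 8.93, 9.16, 9.31 and 9.52 with angiotensin II. In C57Bl/6N they were 8.12, 8.12 and 8.22 in sham and 9.58, 9.40, 9.86 and 9.09 with angiotensin II. Treated and sham arrays did not overlap in either substrain, as for 7.94% of tested genes upward in C57Bl/6J. The upward share in C57Bl/6N is not given here. It rose 1.69-fold in C57Bl/6J (0.76 ± 0.16 SE, adjusted p = 0.0314) and 2.50-fold in C57Bl/6N (1.32 ± 0.16, adjusted p = 0.000167). The C57Bl/6N call held in all 14 fits that left out 1 array, and the C57Bl/6J call was lost in 5 of them, with the highest adjusted p (0.136) without sham array 2 of C57Bl/6J. The C57Bl/6J call was also lost under median scaling (adjusted p = 0.0653), with background inferred from all rows (0.119), with no filter (0.0719) and with only the groups compared (0.0510). Among the other genes of the list of kinase signalling and EGF receptor transactivation, Ptk2b, a calcium-activated tyrosine kinase, rose at least 1.35-fold in C57Bl/6N (adjusted p = 0.00379), from 0 of 3 sham arrays to 4 of 4 treated arrays above background. Rock2, a serine/threonine kinase, rose by 0.38 in C57Bl/6N (adjusted p = 0.0385). The Rock2 call was lost in 6 of the 14 fits that left out 1 array, up to 0.187 without sham array 2 of C57Bl/6N. It was also lost under median scaling (0.0740), with no filter (0.0505) and with only the groups compared (0.0877). In total 3 of 14 genes of the list rose in C57Bl/6N and 1 in C57Bl/6J.

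The enzymes that make or degrade angiotensin peptides had 2 of 11 higher in C57Bl/6N and none called in C57Bl/6J. Prcp, a carboxypeptidase that cleaves angiotensin II, rose 1.58-fold (0.66 ± 0.10 SE, adjusted p = 0.00074) and Dpp3, a dipeptidyl peptidase that also degrades angiotensin peptides, 1.40-fold (0.49 ± 0.11, adjusted p = 0.00653). Both calls held in all 14 fits that left out 1 array. The list median was 0.07 in C57Bl/6N, beside -0.04 over all tested genes. Chymase (Cma1), an alternative maker of angiotensin II from mast cells, reached the background threshold on no array. The same held for 5 of the 6 mast cell markers that had a row, Cma1 and Cpa3 among them. Cma1 and Cpa3 were nevertheless tested, so each had counted as detected (p under 0.05) on 3 arrays or more. Their transcripts are therefore not read as undetected.

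Among arrestins, receptor kinases and RGS proteins, which end signals of receptors such as the type 1 receptor, 3 of 12 rose and 1 fell in C57Bl/6N. Grk5, a receptor kinase, rose by 0.65 (adjusted p = 0.00297), Rgs10 by 0.83 (adjusted p = 0.00332) and Arrb2, beta-arrestin 2, by 0.92 (adjusted p = 0.0191), while Rgs4 fell by 0.50 (adjusted p = 0.00557). In C57Bl/6J the same genes had differences of 0.27, 0.26, -0.24 and -0.01, with 0 of 12 called. The Arrb2 call was lost in 4 of the 14 fits that left out 1 array (highest adjusted p = 0.0809, without sham array 1 of C57Bl/6N), and the other 3 calls held in all of them. The Arrb2 value in C57Bl/6J includes array 1, at 6.97 against 8.02 to 8.14 on the other 3 treated arrays, and was 0.036 (adjusted p = 0.962) without it. The Rgs4 value there was 0.023 without that array.

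Of the list of Gq, phospholipase C and protein kinase C signalling, 1 of 15 genes rose and 3 fell in C57Bl/6N, with a list median of -0.21. The list also held Gna12, a G protein subunit gene outside the Gq family. Itpr2, an inositol trisphosphate receptor, fell by 0.31 (adjusted p = 0.0242) and Gna12, a G protein subunit, by 0.54 (adjusted p = 0.04999). Prkcd, a protein kinase C, rose by 0.34 (adjusted p = 0.0437). The calls of Gna12 and Prkcd were each lost in 11 of the 14 fits that left out 1 array, with the highest adjusted p (0.211 and 0.198) without sham array 1 of C57Bl/6N. That of Itpr2 was lost in 5 (up to 0.0741, without treated array 3). Under median scaling Itpr2 (0.122) and Prkcd (0.0630) were not called, nor with only the groups compared (0.0515 and 0.0965). Gna12 was not called with background inferred from all rows (0.0722) or with no filter (0.0960). In C57Bl/6J 0 of the 15 were called.

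NADPH oxidase subunits, which make superoxide downstream of angiotensin II, had 3 of 4 tested members higher in C57Bl/6N. Ncf4 rose 2.02-fold (1.01 ± 0.26 SE, adjusted p = 0.0141), Rac2 1.67-fold (0.74 ± 0.20, adjusted p = 0.0195) and Cyba 1.52-fold (0.61 ± 0.18, adjusted p = 0.0300). The list median was 0.68, and in C57Bl/6J it was -0.02 with 0 of 4 called. The Ncf4 call was lost in 1 of the 14 fits that left out 1 array, without sham array 2 of C57Bl/6N (adjusted p = 0.0735). Those of Rac2 and Cyba were each lost in 4, up to 0.0956 without sham array 2 and 0.164 without sham array 1. Both were also lost with only the groups compared (0.0583 and 0.0503). Cyba was not called with no filter (0.0614) or with background inferred from all rows (0.0531) either. With background inferred from all rows, the Rac2 difference was 0.10 (adjusted p = 0.0601). Macrophage and monocyte markers moved with them, with 7 of 10 higher in C57Bl/6N, where their summed signal ran from 5854 to 8163 in sham and from 8373 to 18348 with angiotensin II. That count was 4 without sham array 2 of C57Bl/6N, and 5 without its sham array 1 or its treated array 1 or 3 and with only the groups compared. It rose to 9 without treated array 4 of C57Bl/6N and to 10 with array weights. Of all tested genes 9.45% were higher there. In C57Bl/6J 0 of 10 were called, and sums ran from 7283 to 8322 in sham and from 6918 to 8705 with angiotensin II. Ncf4 and Rac2 are chiefly known from blood cells, and the part of those cells in these changes was not tested.

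In the list of the aldosterone axis, 2 of 7 rose in C57Bl/6N. The list median was 0.04 there, beside -0.04 over all tested genes. Nr3c2, the mineralocorticoid receptor gene, had no row, and Hsd11b2 and Cyp11b1 were not tested. Sgk1 and Tsc22d3 were tested and not called in C57Bl/6N, so the 2 calls do not stand for the axis as a whole. Lgals3, galectin 3, which is abundant in macrophages, rose 5.65-fold (2.50 ± 0.37 SE, adjusted p = 0.000648) and Lcn2, lipocalin 2, 4.65-fold (2.22 ± 0.40, adjusted p = 0.00226). In C57Bl/6J both differences were also above 0, at 0.86 (adjusted p = 0.279) for Lgals3 and 1.16 (0.182) for Lcn2, with 0 of 7 called. The difference of the responses called 0 of 7 in this list. Of the subunits of the vacuolar proton pump, with which Atp6ap2 associates, 2 of 14 rose in C57Bl/6N, Atp6v0e by 0.51 (adjusted p = 0.0146) and Atp6v1h by 0.46 (adjusted p = 0.0210). The Atp6v0e call was lost in 1 of the 14 fits that left out 1 array, without sham array 1 of C57Bl/6N (adjusted p = 0.0723). That of Atp6v1h was lost in 3, up to 0.110 without sham array 2. It was also lost under median scaling (0.0653) and with only the groups compared (0.0539). In C57Bl/6J 0 of these 14 subunits were called.

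Receptors of related peptides and modulators of angiotensin receptors had 0 of 5 called in C57Bl/6N and 1 in C57Bl/6J. Aplnr, the apelin receptor, fell there by 0.84 on the log2 scale, to 0.559-fold (adjusted p = 0.0485), with a difference of -0.18 (adjusted p = 0.570) in C57Bl/6N. That call was lost in 10 of 14 fits that left out 1 array, up to an adjusted p of 0.208 without sham array 1 of C57Bl/6J, and without treated array 1 the difference was -0.71 (0.0905). It was also lost with background inferred from all rows (0.0919), with no filter (0.114) and with only the groups compared (0.0719). Averaged over the substrains, 17 of 82 pathway genes were called (11 higher and 6 lower, where 8.32% and 7.48% of all genes were), which added Prep, a prolyl peptidase, at 0.23, Prkce, a protein kinase C, at -0.65 and Hsd11b1, which regenerates glucocorticoid, at -0.25. The averaged count fell to 8 without sham array 2 of C57Bl/6J, to 9 without treated array 3 of C57Bl/6N and to 11 without its treated array 1 or sham array 3 of C57Bl/6J, and was 29 with array weights. The call of Prkce was lost in 10 of the 14 fits that left out 1 array (up to 0.105), that of Prep in 5 (up to 0.0770) and that of Hsd11b1 in 4 (up to 0.0722), each highest without sham array 2 of C57Bl/6J. Prkce was also not called with no filter (0.107), nor Prep under median scaling (0.155). Prkce was at 5.44 and not above background on treated array 1 of C57Bl/6J, against 6.86 to 7.19 on the other 3, and its averaged difference was -0.45 (adjusted p = 0.00162) without that array.

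**Figure D5:**
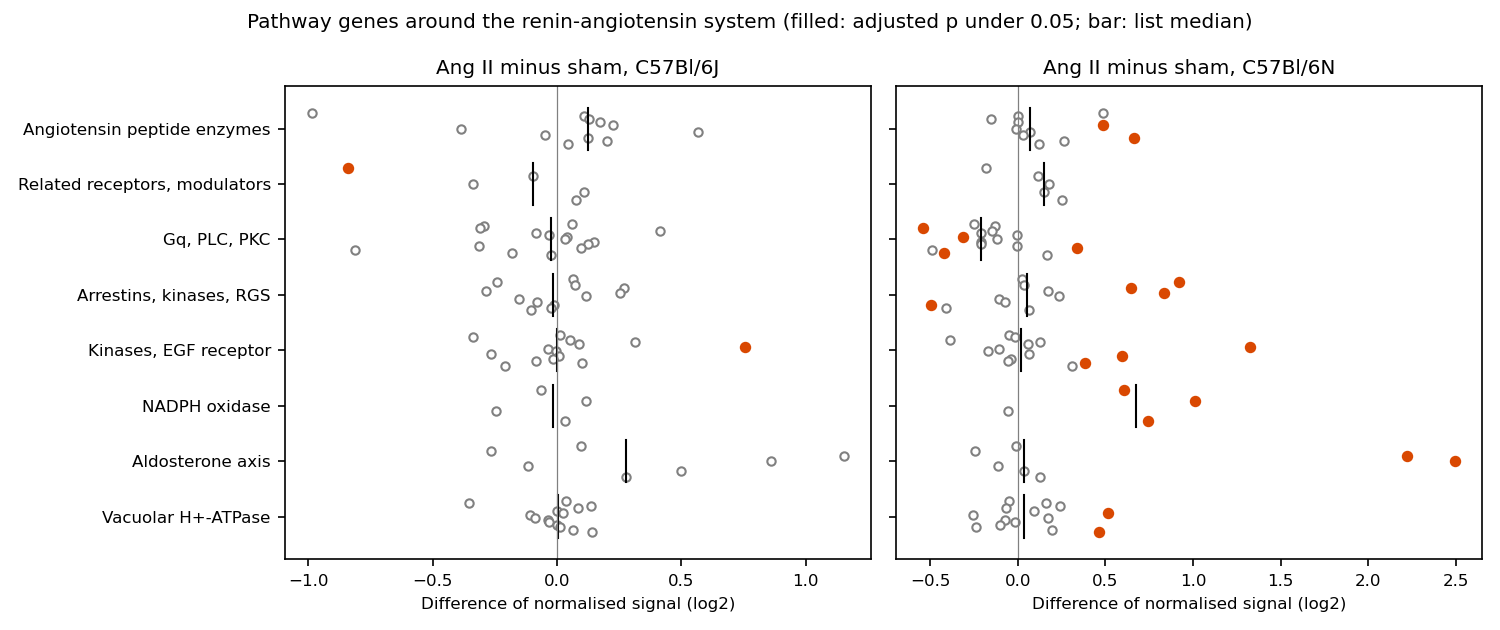
Log2 difference of each tested pathway gene (horizontal axis), angiotensin II minus sham, in C57Bl/6J (left) and C57Bl/6N (right), by list (vertical axis, with points spread within a list for display); filled points passed the threshold and vertical bars are list medians. In C57Bl/6N 20 of 82 points are filled and in C57Bl/6J 2 are; Ptk2b is drawn at its fitted difference, although its sham arrays were not above background.

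Between treated groups, 12 of the 82 pathway genes were called (10 higher and 2 lower in C57Bl/6N, 14.6% against 9.24% of all tested genes, of which 5.45% were higher and 3.78% lower), and 0 of 82 between sham groups, where 0 to 3 genes of each list had an unadjusted p under 0.05. The count fell to 5 without treated array 1 or 3 of C57Bl/6N and with only the treated groups in the fit. Rgs4 was lower by a log2 difference of -0.55 (adjusted p = 0.00545). Lgals3 was higher by 1.98 (adjusted p = 0.00520), Arrb2 by 1.01 (adjusted p = 0.0164, and 0.73 with 0.0194 without treated array 1 of C57Bl/6J), Rac2 by 0.80 (adjusted p = 0.0173) and Prcp by 0.46 (adjusted p = 0.0102). The calls of Arrb2 and Rac2 were each lost in 2 of the 14 fits that left out 1 array (up to 0.0690 and 0.0723, without treated array 1 of C57Bl/6N), and those of Rgs4, Lgals3 and Prcp held in all of them. Beside these, Agtrap was the 1 member called between treated substrains. That call was lost in 7 of the 14 fits that left out 1 array, among them the fit without treated array 1 of C57Bl/6J (adjusted p = 0.0722).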

How the data were processed

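Left ventricular RNA of 14 samples was hybridised to Illumina arrays. The deposited table holds, per the file headers, a linear average signal intensity and a detection p-value for each gene row and array. No background subtraction or normalisation of it is recorded, and the sources used here name neither scanner software nor array model. A separate deposited value table of 18132 rows, with a median intensity of 91.6, equalled the quantile normalised signals and served as an alternative.

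Background mean and SD per array were inferred from 14215 rows whose detection p-values lay on a grid of 798 steps, taken as 1-probe rows; the other 3923 rows were taken as several probes. Signals were corrected by the normexp method, offset by 16, quantile normalised and put on a log2 scale, which understates changes of dim genes. Rows with a detection p under 0.05 on at least 3 arrays were tested with limma 3.58.1 in R 4.3.3, in 1 fit over 4 groups with 10 residual degrees of freedom and Benjamini-Hochberg adjustment over 9408 rows. Where every array of a group was below background, a fold is a lower bound, set against the background threshold or, where higher, the gene's measured signal. The code was tested on simulated data.

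All 9 members were named, with pathway genes past the threshold, at most the 6 largest changes per list and comparison. Some genes that these rules name are not reported here, although counts include them. For members above background on at least 12 arrays, the 3 most correlated genes were found. The members and lists were chosen with earlier results of these data known. Alternatives changed the normalisation, background, offset, filter, samples in the fit, array weights and the arrays left out. The number of arrays limits the precision.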

Additional observations from a re-analysis of the deposited data

Results flagged for a closer look

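Among 66 sets of 4 treated arrays, from 33 genes in 2 substrains, 2 held an array far from the other 3 by Dixon's criterion, which chance alone meets in about 1 set in 20. Both concerned angiotensin II array 1 of C57Bl/6J. Agtrap was at 9.45 log2 units there and at 8.83 to 8.89 on the other 3 arrays. Arrb2 was at 6.97 there and at 8.02 to 8.14 on the others.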

How the results depend on the processing

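The Agtrap difference between treated substrains kept its direction under every alternative. No paired analysis was possible because replicate numbers only follow accession order. Array weights raised the counts of genes called, to 559 in C57Bl/6J, 2665 in C57Bl/6N, 569 for the difference of the responses, 30 between sham groups, 2240 between treated groups, 2619 for treatment averaged over substrains and 1145 for substrain averaged over treatments. Background inferred from all rows gave 67, 4 and 113 genes in C57Bl/6J, between sham groups and for the averaged substrain, no filter gave 75 in C57Bl/6J, and fitting only the groups compared gave 70, 1 and 249 in C57Bl/6J, between sham and between treated groups. The difference of the responses had 0 genes with no background correction, with the deposited value table, with background inferred from all rows and with rows detected on all 14 arrays. Members called became 0 between treated groups under median scaling, background from all rows, no filter and only the groups compared, and 1 with array weights in C57Bl/6N and for the averaged substrain. Median scaling moved the share of calls that were higher from 72.9% to 47.8% in C57Bl/6J and from 59.0% to 78.1% between treated groups.

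Signs that turned all belonged to differences that did not pass. Ace in C57Bl/6J became 0.0029 with background from all rows and 0.19 with array weights. Ace between treated groups became -0.022 with no background correction, the deposited table or background from all rows, -0.021 with an offset of 50, and -0.28 with array weights. The difference of the responses became 0.055 for Agtr1a under median scaling, and for Atp6ap2 0.014 under median scaling and 0.055 with array weights.

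Leaving out 1 array gave 1 to 179 genes in C57Bl/6J, 967 to 2266 in C57Bl/6N, 1 to 412 for the difference, 1 to 4 between sham groups, 206 to 1475 between treated groups, 968 to 1884 for averaged treatment and 68 to 601 for averaged substrain. Members called ran from 0 to 1 in C57Bl/6N, between treated groups and in both averages, and were 0 otherwise. Ace ran from -0.31 to 0.27 in C57Bl/6J and from -0.38 to 0.19 between treated groups. Atp6ap2 ran from -0.015 to 0.13 in C57Bl/6N and from -0.13 to 0.017 for the difference. Agtr1a ran from -0.21 to 0.040 for the difference, and Agtrap from -0.042 to 0.11 between sham groups. The causes of these changes were not tested. Signal over background limits Agt, Ren1, Mas1, Agtr1b and Agtr2, whose values lay near it.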

Other observations

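Beyond the nearest gene of each member, the next closest over 14 arrays were Baz2a (Pearson r = 0.888) and SIAT7F (0.885) for Agtr1a, Mylk (0.929) and Pltp (0.920) for Ace, and Alg12 (0.892) and Uso1 (0.886) for Atp6ap2. After group means were subtracted, Fam210b (0.926) and Adarb1 (0.925) followed for Agtrap, Trafd1 (0.916) and Adsl (0.911) for Agtr1a, Bcl9l (0.973) and Smyd2 (0.971) for Ace, and Zranb2 (0.914) for Atp6ap2. Ace and Agtrap had a correlation of -0.70 after group means were subtracted, beside -0.49 before. Treated array 1 of C57Bl/6J, at 5.43 for Ace and 9.45 for Agtrap, weighs heavily in that value. Correlations without that array were not computed, so no relation of these genes within groups is read from it. The same array weighs heavily in the genes listed for Ace after group means were subtracted.

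Of the pathway genes tested, 4 were above background on no array, namely Arap1, Cma1, Cpa3 and Cyp11b2. These 4 had passed the detection filter for testing, so they are not read as undetected. Fibroblast markers had 3 of 10 higher and 1 lower with angiotensin II in C57Bl/6N, where 9.45% and 7.92% of all tested genes were. Smooth muscle and pericyte markers there had 3 of 11 higher and 2 lower, and atrial markers 1 of 7 higher and 1 lower. Endothelial markers had 1 of 9 lower. In C57Bl/6J, where 1.37% of tested genes were called, 1 of 10 fibroblast, 1 of 11 smooth muscle and pericyte and 1 of 7 atrial markers were higher.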
